A study of Mus musculus with 14 samples.

Results

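The genes described here are those of interleukin 6 and its signal: the ligands Il6, Il11, Lif and Osm, the receptor chains Il6ra, Il6st and Osmr, the transcription factor Stat3, the inhibitor Socs3 and the transcription factor Cebpd. Every probe whose current or older gene symbol is one of these 10 was taken, whatever its values. Of the 10 genes, 8 are named by 11 of the 19621 probes, which together name 13923 genes. Stat3 has 3 probes and Il6st has 2, numbered here from the brightest down, and Lif and Osm, which no probe names, were not analysed here. Single-colour CodeLink arrays, 1 for each of 14 mice, measured RNA of the lung, to compare the response to mechanical ventilation between wild-type and jnk1-/- mice. Each genotype had 3 unventilated controls and 4 ventilated mice. Ventilated mice received room air at a tidal volume of 10 ml/kg for 8 hours with a positive end-expiratory pressure of 2 cmH2O, and RNA came from the right lung. All mice were adults on the C57/BL6 background, matched for age and sex, with no ages given. Wild-type mice were bought from Jackson Laboratory, whereas the jnk1-/- mice were generated at Yale University and had a gray instead of a black coat. Genotype therefore cannot be told apart from the source of the mice. The jnk1-/- mice lack the gene in every cell, so a difference between genotypes cannot be assigned to a cell type. All mice received ketamine and acepromazine. Controls were killed directly after anaesthesia, whereas ventilated mice also received pancuronium and stayed under anaesthesia, so ventilation cannot be told apart from these.

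Interleukin 6 binds its own receptor chain, encoded by Il6ra, in a membrane-bound or soluble form, and the pair then engages gp130, the signalling chain encoded by Il6st. Interleukin 11, leukemia inhibitory factor and oncostatin M use the same gp130 with other partner chains, among them the oncostatin M receptor encoded by Osmr. Kinases of the JAK family bound to gp130 phosphorylate STAT3, which moves to the nucleus and switches on genes such as Socs3, Cebpd and its own gene. SOCS3 protein binds gp130 and the kinases and stops the signal, so that the loop limits itself. In the injured lung, interleukin 6 is a classic inflammatory cytokine made by epithelium, macrophages and fibroblasts.

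Both the cytokine and its feedback inhibitor are textbook examples of genes switched on through the promoter. For that reason the 250 bases before a transcript start of each are shown (RefSeq, GRCm38.p6, printed 5′ to 3′ in the direction of the gene). In the Il6 promoter, at chr5:30012864-30013113 on the plus strand, capitals mark from left to right matches to an AP-1 motif (TGANTCA), a C/EBP motif (TTGCNNAA, here on the opposite strand) and an NF-kB motif of 10 bases. In the Socs3 promoter, at chr11:117969367-117969616 on the minus strand, capitals mark a match to the STAT motif (TTCNNNGAA). This stretch lies inside the Socs3 gene span of chr11:117966079-117970336, before an inner transcript start and not before the outer end of the gene.
Il6: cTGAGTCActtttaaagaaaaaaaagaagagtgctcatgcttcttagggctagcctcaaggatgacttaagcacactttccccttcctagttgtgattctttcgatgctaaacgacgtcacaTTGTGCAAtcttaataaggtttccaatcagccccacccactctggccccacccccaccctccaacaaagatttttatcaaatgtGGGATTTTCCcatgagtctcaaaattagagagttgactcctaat
Socs3: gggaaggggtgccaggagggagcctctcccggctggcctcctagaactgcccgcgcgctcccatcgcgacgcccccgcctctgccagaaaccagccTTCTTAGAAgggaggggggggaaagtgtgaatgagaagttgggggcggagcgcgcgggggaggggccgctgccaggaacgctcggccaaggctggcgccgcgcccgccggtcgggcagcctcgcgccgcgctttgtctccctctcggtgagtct
Motifs were searched on both strands, and no match overlapped another. The first base of each match lay 249, 128 and 44 bases before the start of Il6 and 154 bases before the inner transcript start of Socs3. Over the same 250 bases of all 32851 promoters in the table, 6.75% held the AP-1 motif, 9.56% the C/EBP motif, 0.356% the NF-kB motif and 7.02% the STAT motif. Among the 8 members with a promoter entry, the AP-1 motif also lay before Il11 and Lif, and the STAT motif lay before Socs3 alone. AP-1 is the factor family that contains c-Jun, the substrate after which the JNK kinases are named. These letter matches describe the sequence and say nothing of binding in these lungs.

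The lung label was borne out by the alveolar epithelium markers, 7 of 10 listed genes measured, whose summed level on the log2 scale lay between 14.68 and 15.48 on every array. Mapk8 encodes JNK1, and its probe was too dim to check the genotype. It lay at the floor of the authors' normalized table on 1 of 3 wild-type control, 2 of 4 ventilated wild-type, 3 of 3 jnk1-/- control and 3 of 4 ventilated jnk1-/- arrays, and the jnk1-/- controls differed from the wild-type controls by -1.48 on the log2 scale (SE 0.88, adjusted p = 0.368). Among controls, wild-type replicates 2 and 3 lay closer together than the other pairs, with an SD of the difference over bright probes of 0.38 against 0.48 to 0.59. The same held for jnk1-/- replicates 1 and 2, at 0.33 against 0.67 to 0.68. Calls of the ventilation changes that were lost without either pair are given below. The jnk1-/- control arrays also carried skeletal muscle markers at a summed level of 13.08 to 13.62, against 8.13 to 9.11 on all other arrays, and stratified squamous epithelium markers at 12.06 to 13.12, against 8.50 to 9.72. In these whole-tissue samples, fewer cells of a type and less RNA per cell cannot be told apart.

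Il6 rose after ventilation in both genotypes. On the wild-type control arrays its log2 intensity after cyclic loess, which removes intensity-dependent differences between arrays, was 3.72, 2.93 and 3.91, and on the ventilated ones 5.34, 7.75, 7.85 and 6.35. Its intensity in jnk1-/- mice was 4.57, 5.62 and 4.85 in controls and 7.58, 9.10, 6.65 and 8.43 after ventilation. No ventilated array overlapped the controls of its genotype, and the lowest value of all, wild-type control replicate 2, lay at the floor of the authors' table. The group means were 3.52 ± 0.52 (SD, n = 3) and 6.82 ± 1.20 (n = 4) in wild-type and 5.01 ± 0.54 and 7.94 ± 1.06 in jnk1-/- mice. The rise was 9.85-fold in wild-type mice, 3.30 on the log2 scale (SE 0.67, adjusted p = 0.0213). The rise in jnk1-/- mice was 7.61-fold, 2.93 on the log2 scale (SE 0.67, adjusted p = 0.0164). All adjusted p-values come from limma, adjusted by Benjamini-Hochberg for 19621 probes, and a probe is said to have risen or fallen where the value is under 0.05. The wild-type call was lost when control replicate 2 or 3 or ventilated replicate 2 or 3 was left out, with changes of 2.96 to 3.50 and adjusted p = 0.0538 to 0.0878. The jnk1-/- call was lost without control replicate 1 (2.71, adjusted p = 0.0642), and without the close pair of controls both were (3.10 and 3.09, adjusted p = 0.264 and 0.107). The Il6 gene lies at chr5:30013114-30019975 of GRCm38.p6.

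Il11, the gp130 ligand known for fibrosis and platelet formation, was dim. Its values were 2.19, 4.66 and 2.75 in wild-type controls, 3.32, 4.09, 2.86 and 3.80 in ventilated wild-type mice, 2.44, 2.25 and 1.42 in jnk1-/- controls and 4.35, 1.63, 4.43 and 4.90 in ventilated jnk1-/- mice. The groups of each genotype overlapped, and 7 of the 14 values lay at the floor of the authors' table. The change was 0.32 (SE 0.76, adjusted p = 0.863) in wild-type and 1.79 (SE 0.76, adjusted p = 0.153) in jnk1-/- mice. The jnk1-/- difference passed the threshold when ventilated replicate 2, the low array, was left out (2.52, adjusted p = 0.0247), as did the mean change of both genotypes (1.42, adjusted p = 0.0362, against 1.06 with all arrays).

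Of the receptor chains, Osmr changed with ventilation in each genotype and the others did not pass the test in either. Osmr, which pairs with gp130 to bind oncostatin M, had values of 6.01, 5.72 and 5.85 in wild-type controls and 6.72, 7.57, 7.77 and 7.19 after ventilation. The jnk1-/- arrays had 5.45, 5.23 and 4.31 in controls and 7.97, 7.76, 7.47 and 8.24 after ventilation. The jnk1-/- controls were the lowest arrays, all under the wild-type controls, and the ventilated groups overlapped. Osmr rose 2.74-fold in wild-type mice (1.45, SE 0.31, adjusted p = 0.0281) and 7.28-fold in jnk1-/- mice (2.86, SE 0.31, adjusted p = 3.63e-04). The difference between these changes was 1.41 on the log2 scale (95% interval 0.44 to 2.38). It had an unadjusted p = 0.00813, the lowest among the members, and did not pass after adjustment (adjusted p = 0.219). The wild-type call was lost when control replicate 2 or 3 or ventilated replicate 2, 3 or 4 was left out (1.30 to 1.49, adjusted p = 0.0508 to 0.0999) or controls 2 and 3 together (1.30, adjusted p = 0.354), whereas the jnk1-/- call kept its side without any single array. The Osmr gene lies at chr15:6813568-6874968.

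Il6st encodes gp130 itself. Its bright probe 1 read 10.47, 9.87 and 10.16 in wild-type controls, 10.17, 10.98, 10.996 and 10.10 after ventilation, 9.99, 9.92 and 9.73 in jnk1-/- controls and 10.67, 10.89, 10.51 and 10.81 after ventilation. The wild-type groups overlapped and the jnk1-/- groups did not. The change was 0.39 (SE 0.25, adjusted p = 0.422) in wild-type and 0.84 (SE 0.25, adjusted p = 0.0515) in jnk1-/- mice, and the mean change of both genotypes was a 1.53-fold rise (0.62, SE 0.18, adjusted p = 0.0362). That call was kept when wild-type control replicate 1, ventilated wild-type replicate 1 or 4 or ventilated jnk1-/- replicate 3 was left out and lost without any of the other arrays (adjusted p = 0.0532 to 0.0842). It was also lost without wild-type controls 2 and 3 together (0.47, adjusted p = 0.254) or jnk1-/- controls 1 and 2 together (0.69, adjusted p = 0.0989). Probe 2 of Il6st was dim, between -0.63 and 5.07, with 7 of 14 values at the floor of the authors' table, and its mean change of 0.90 (SE 0.68, adjusted p = 0.417) did not pass. Without ventilated wild-type replicate 1, whose value of -0.63 was the lowest, it was 1.43 (adjusted p = 0.0273). Il6ra, the chain that binds interleukin 6, lay between -0.63 and 3.55, and 13 of its 14 values were at that floor. Its level was therefore hardly measured by this probe in any group, and its changes of 0.48 in wild-type (95% interval -1.63 to 2.60) and 0.19 in jnk1-/- mice (-1.92 to 2.30) bound little.

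Stat3 rose in jnk1-/- mice on all 3 probes and in wild-type mice on none, although the arrays of the wild-type groups did not overlap on any of them. Probe 1 had 10.22, 9.93 and 10.15 in wild-type controls, 10.88, 10.79, 10.82 and 10.34 after ventilation, 10.36, 10.57 and 9.72 in jnk1-/- controls and 11.74, 11.66, 10.58 and 10.98 after ventilation. Probe 2 had 7.38, 8.60 and 7.68, then 8.74, 10.06, 9.57 and 9.34, in wild-type mice, and 7.80, 7.27 and 8.60, then 10.91, 10.91, 8.92 and 10.20, in jnk1-/- mice. Probe 3 had 6.59, 7.09 and 6.31, then 7.53, 9.06, 7.89 and 8.22, in wild-type mice, and 6.81, 6.56 and 7.65, then 10.05, 9.88, 8.04 and 8.84, in jnk1-/- mice. On each probe the lowest ventilated jnk1-/- array was replicate 3. The changes on probes 1, 2 and 3 were 0.60, 1.54 and 1.51 in wild-type mice (adjusted p = 0.285, 0.125 and 0.119). The jnk1-/- changes were 1.02, 2.34 and 2.19 (adjusted p = 0.0458, 0.0145 and 0.0169), which correspond to 2.03-fold, 5.08-fold and 4.58-fold. The bright probe changed less than the other two in both genotypes, and a difference between the probes was not tested. A difference between the genotypes' changes was not detected on any probe, with estimates of 0.42 (95% interval -0.50 to 1.34), 0.81 (-0.80 to 2.41) and 0.68 (-0.87 to 2.24). With both genotypes averaged, all 3 probes rose, by 0.81 to 1.94 (adjusted p = 0.00484 to 0.0226). The jnk1-/- calls on probes 2 and 3 were lost without control replicate 1 or 2 (1.97 to 2.30, adjusted p = 0.0515 to 0.0672) or both (1.63 and 1.55, adjusted p = 0.241 and 0.261), and that on probe 1 was kept in 7 of 27 alternative analyses and, with single arrays left out, only without ventilated jnk1-/- replicate 3. The averaged call on probe 1 was lost without wild-type control replicate 2 (0.77, adjusted p = 0.0512) or controls 2 and 3 together (0.75, adjusted p = 0.145), and those on probes 2 and 3 without jnk1-/- controls 1 and 2 together (1.58 and 1.53, adjusted p = 0.0610 and 0.0660). The Stat3 gene lies at chr11:100886806-100939594.

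Socs3, the feedback inhibitor whose promoter with its STAT motif is shown above, rose in both genotypes. It had 6.18, 5.59 and 5.88 in wild-type controls and 7.78, 8.50, 9.18 and 7.83 after ventilation. The jnk1-/- arrays had 6.12, 6.20 and 6.24 in controls and 8.96, 9.26, 7.82 and 10.42 after ventilation. All 8 ventilated arrays lay above all 6 controls, by at least 1.54, and the jnk1-/- controls varied least of any group (6.19 ± 0.06, SD, n = 3). Socs3 rose 5.41-fold in wild-type mice (2.44, SE 0.50, adjusted p = 0.0226) and 7.62-fold in jnk1-/- mice (2.93, SE 0.50, adjusted p = 0.00434). The difference of these changes was 0.49 (95% interval -1.06 to 2.05). The wild-type call was lost when control replicate 2 or 3 or ventilated replicate 2 or 3 was left out (2.15 to 2.43, adjusted p = 0.0564 to 0.0895), and without controls 2 and 3 together (2.14, adjusted p = 0.331). In jnk1-/- mice it was kept without any single array and lost without the close controls 1 and 2 together (2.88, adjusted p = 0.0623). The Socs3 gene lies at chr11:117966079-117970336.

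Cebpd encodes C/EBP delta, a transcription factor of acute phase genes that binds C/EBP motifs, to which the Il6 promoter above holds a letter match. It had 10.28, 10.54 and 10.75 in wild-type controls, 12.27, 12.10, 11.89 and 11.96 after ventilation, 10.82, 11.63 and 11.16 in jnk1-/- controls and 13.21, 13.04, 12.12 and 13.04 after ventilation. Ventilated arrays lay above controls without overlap in each genotype, and the jnk1-/- controls lay above the wild-type ones. Cebpd rose 2.89-fold in wild-type (1.53, SE 0.28, adjusted p = 0.0120) and 3.14-fold in jnk1-/- mice (1.65, SE 0.28, adjusted p = 0.00371). Both calls were kept when any single array was left out, and the wild-type call was lost without controls 2 and 3 together (1.78, adjusted p = 0.115). The difference of the changes was 0.12 (95% interval -0.73 to 0.97). The Cebpd gene lies at chr16:15887286-15889545.

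**Figure D1:**
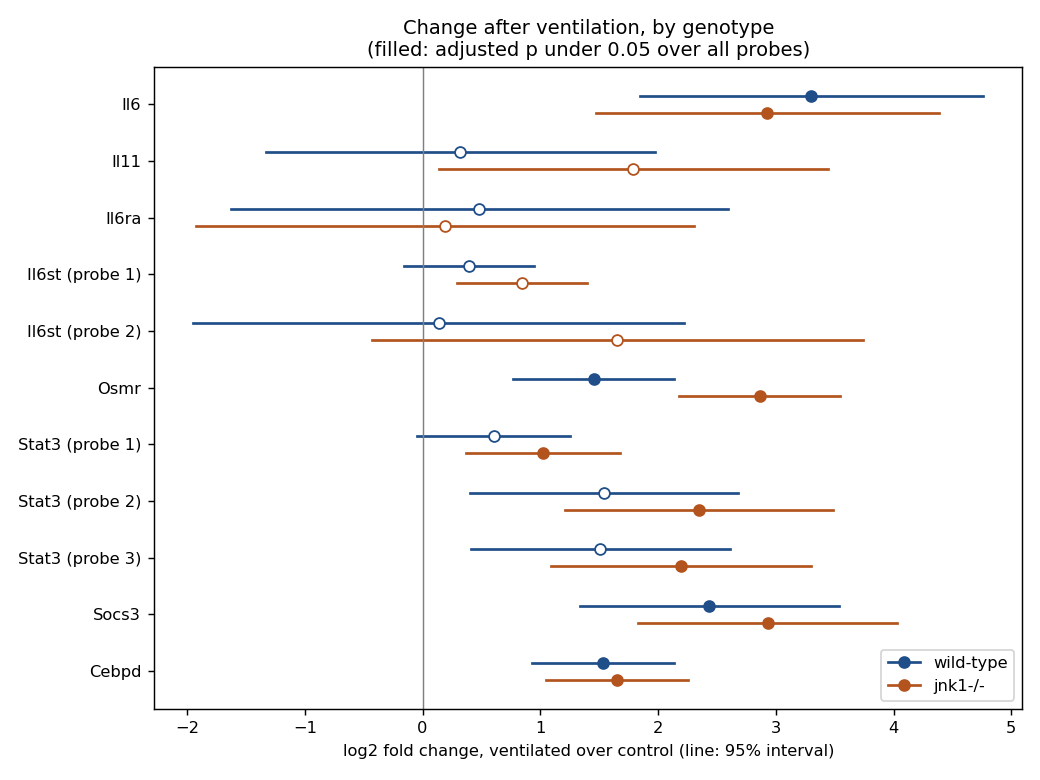
Log2 fold change of ventilated over control mice for each member probe (x axis, log2 units) in wild-type and jnk1-/- mice. Points are limma estimates from all 14 arrays, filled where the adjusted p over all probes is under 0.05, and lines are 95% intervals. The intervals of the genotypes overlap for every probe but Osmr, whose lines are 0.77 to 2.14 and 2.18 to 3.55.

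Over the 11 member probes, 4 rose in wild-type mice (Il6, Osmr, Socs3 and Cebpd) and none fell, where 3.73% of all probes were called, 2.22% higher and 1.51% lower. The count in jnk1-/- mice was 7 of 11 risen and none fallen, where 11.7% of all probes were called, 6.72% higher and 5.02% lower. With both genotypes averaged, 8 of 11 rose and none fell, where 15.9% of all probes were called, 8.67% higher and 7.24% lower. The median change of the members was 1.45, 1.79 and 1.59 in these comparisons, against 0.08, -0.04 and 0.03 over all probes. Ventilated arrays all lay above controls on 7 of 11 probes in wild-type and 9 of 11 in jnk1-/- mice, where 11.3% and 12.3% of all probes did so. The wild-type count fell to 1, Cebpd, without control replicate 2 or 3 or ventilated replicate 2 or 3, and to 0 without controls 2 and 3 together. The jnk1-/- count fell to 3 without control replicate 1, to 4 without control replicate 2 and to 2 without both. The averaged rises of Il6, Osmr, Socs3 and Cebpd were called in all 26 alternative analyses.

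Markers of several cell types moved beside these genes. The summed level of the neutrophil markers, 14 of 19 listed genes measured, was 11.78 to 12.37 in wild-type controls and 14.23 to 14.95 after ventilation, and 11.46 to 11.52 and 13.60 to 14.92 in jnk1-/- mice. Of the 14 genes, 7 rose and none fell in wild-type mice, and 6 rose and 1, Ltf, fell in jnk1-/- mice. Of 7 measured B cell markers, 2 fell in wild-type and 4 in jnk1-/- mice, and of 4 adipocyte markers 2 fell in each. Of 6 fibroblast markers, 1 fell in wild-type mice, and 2 rose and 1 fell in jnk1-/- mice, where their summed level was 12.30 to 13.19 in controls and 13.43 to 14.08 after ventilation. The part of these cell types in the changes of the members was not tested. Within the ventilated groups the order of the arrays was not the same for the members and the neutrophil markers. Ventilated jnk1-/- replicate 3 had the highest neutrophil level of its group, 14.92 against 13.60 to 14.29, and the lowest value of its group on 9 of 11 member probes, including Il6, Osmr, Socs3, Cebpd and all 3 of Stat3. In ventilated wild-type mice replicate 1 was the lowest on 7 of 11 probes, with a neutrophil level of 14.52. Replicate 3 of that group, by contrast, had its highest summed neutrophil level, 14.95. It also had the highest value of the group on 5 of 11 probes, including Il6, Osmr and Socs3. By the mean of the markers' log2 values, however, replicate 1 was the highest of that group, at 9.20 against 9.10 in replicate 3. Ventilated jnk1-/- replicate 3 was the highest of its group by this mean too, at 8.41. The skeletal muscle and squamous markers fell with ventilation in jnk1-/- mice (10 of 11 and 9 of 11 measured genes) from their high level in the controls, and their part in the jnk1-/- changes was not tested.

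**Figure D2:**
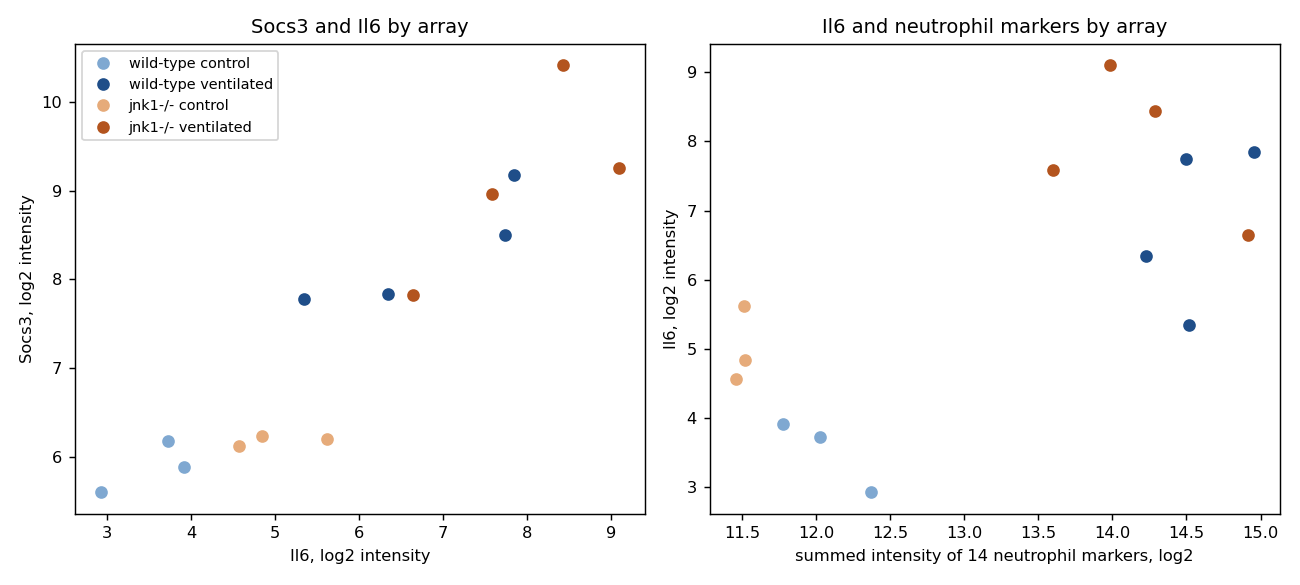
Socs3 against Il6 (left) and Il6 against the summed intensity of 14 neutrophil marker genes (right) on each of the 14 arrays, all axes in log2 units, points coloured by group. Ventilated and control mice do not overlap in Socs3 or in the neutrophil level, whereas the lowest ventilated wild-type Il6, 5.34, lies under the highest jnk1-/- control, 5.62. The ventilated jnk1-/- array with the highest neutrophil level, 14.92, has the lowest Il6 of its group, 6.65. The ventilated wild-type array with the highest summed neutrophil level, 14.95, has the highest Il6 of its group, 7.85. By the mean of the markers' log2 values this array, at 9.10, lies under ventilated wild-type replicate 1, at 9.20.

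No member passed the test between the genotypes. In controls, 0 of 11 probes were called by limma (2 at an unadjusted p under 0.05, Osmr and Cebpd), where 4.07% of all probes were, 1.89% higher and 2.18% lower in jnk1-/- mice. Il6 differed by 1.49 between jnk1-/- and wild-type controls (95% interval -0.07 to 3.05, adjusted p = 0.262), with all jnk1-/- values above all wild-type values. Cebpd differed by 0.68 (0.04 to 1.32, adjusted p = 0.218), also without overlap, and Osmr by -0.86 (-1.59 to -0.13, adjusted p = 0.176), with the jnk1-/- arrays the lower ones. Thus 2 probes lay above and 1 below without overlap, where 13.5% and 13.1% of all probes did. The muscle and squamous markers named above were higher in these jnk1-/- controls (10 of 11 and 8 of 11 measured genes), and 2 of 6 platelet markers were lower, as were 2 of 6 after ventilation. Their part in these differences was not tested.

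After ventilation, 0 of 11 probes were called between the genotypes by limma (2 at an unadjusted p under 0.05, Cebpd and Stat3 probe 3), where 0.525% of all probes were, 0.240% higher and 0.285% lower in jnk1-/- mice. All 11 estimates were above 0, with a median of 0.80 against -0.02 over all probes. These are not 11 separate measurements, since 3 are of Stat3 and 2 of Il6st. The probes of Il6ra and Il11 and probe 2 of Il6st were dim. In the authors' table the Il6ra difference was 0, all its ventilated values lying at the floor. Every probe had overlapping groups, where 3.08% of all probes lay higher and 3.26% lower without overlap. The probes of Il6, Socs3, Osmr and Cebpd differed by 1.12 (95% interval -0.23 to 2.47), 0.80 (-0.22 to 1.81), 0.55 (-0.09 to 1.18) and 0.80 (0.25 to 1.36). Cebpd had an adjusted p = 0.277, and without ventilated jnk1-/- replicate 3 its difference was 1.05 (adjusted p = 0.0434). The change with ventilation itself differed between genotypes on 0 of 11 probes by limma, 1 (Osmr) at an unadjusted p under 0.05, where 0.392% of all probes were called, 0.199% with a higher and 0.194% with a lower change in jnk1-/- mice. These intervals are wide, and do not show that the genotypes respond alike.

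Some of the genes listed as known targets of STAT3 also rose. Of 28 listed, 25 were measured. In wild-type mice 8 rose and 17 were not called, where 2.22% of all probes rose, and in jnk1-/- mice 9 rose and 16 were not called, where 6.72% rose. Saa3, an acute phase protein, had the largest change of the list, from 6.26 ± 0.32 to 11.44 ± 0.97 in wild-type mice (5.18, SE 0.61, adjusted p = 0.00129) and from 7.20 ± 1.03 to 11.19 ± 0.82 in jnk1-/- mice (3.99, SE 0.61, adjusted p = 0.00223). Serpina3n, which encodes an acute phase serpin, rose by 2.96 and 2.24. Myc, the growth regulator, rose by 2.09 and 1.97, and Tnfrsf12a, the receptor of the cytokine TWEAK, by 2.35 and 2.99. These 4 genes were called in both genotypes without any single array. Lrg1, a glycoprotein that neutrophils also make, rose by 2.06 in wild-type mice, and its change of 0.85 in jnk1-/- mice did not pass. Pim3, a survival kinase, rose by 1.12 and 1.01. In jnk1-/- mice Timp1, an inhibitor of matrix metalloproteinases, rose by 2.01 and Mcl1, which protects cells from death, by 0.93. Wild-type mice had 7.35 ± 0.25 and then 8.80 ± 0.52 for Timp1, and 9.10 ± 0.07 and then 9.81 ± 0.23 for Mcl1. Neither gene had overlapping wild-type groups. With both genotypes averaged, 14 of 25 rose, where 8.67% of all probes did, and 1, Reg3g, fell (-1.41, adjusted p = 0.0208), where 7.24% did. The median change of the list was 0.73 in wild-type and 1.01 in jnk1-/- mice, against 0.08 and -0.04 over all probes, and no gene of it was called between the genotypes or in the difference of the changes. Many of these genes also respond to other signals.

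**Figure D3:**
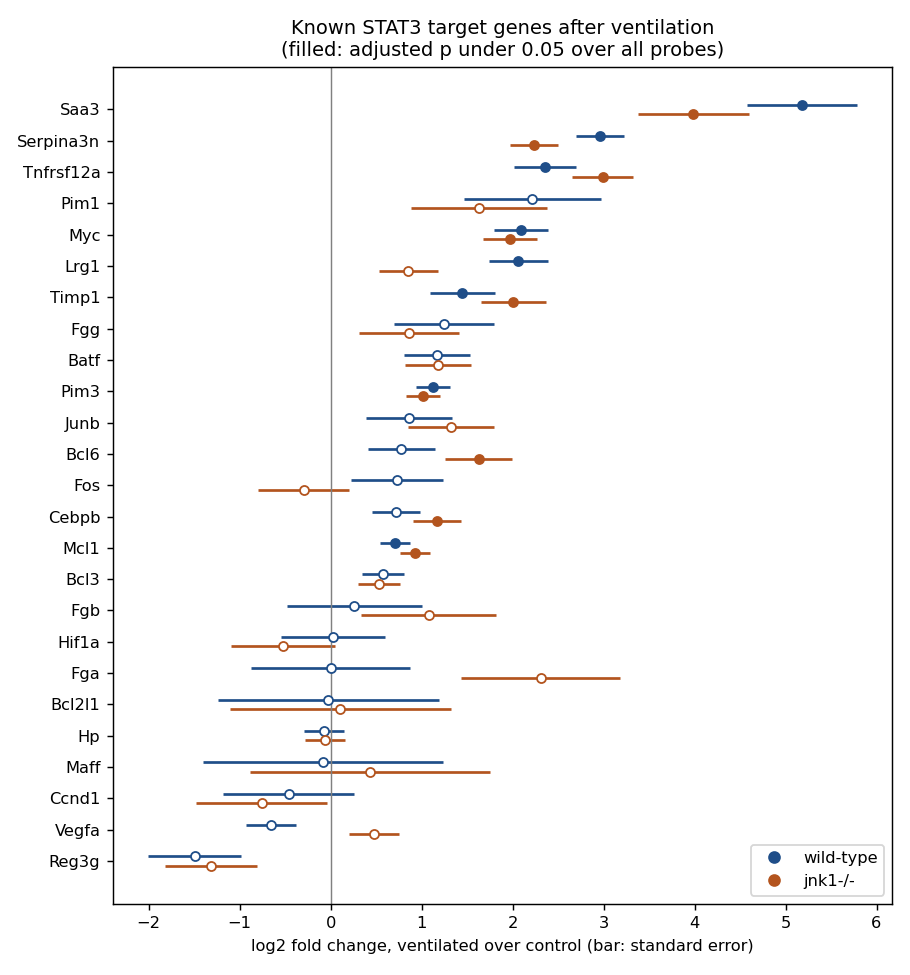
Log2 fold change of ventilated over control mice (x axis, log2 units) for the 25 measured genes listed as STAT3 targets, in wild-type and jnk1-/- mice. Points are limma estimates, filled where the adjusted p over all probes is under 0.05, and bars are standard errors. Saa3 has the largest changes, 5.18 and 3.99, and Reg3g the lowest in both genotypes.

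Most other genes of the gp130 system were not called. Over all probes, 2.22% rose and 1.51% fell in wild-type mice, and 6.72% rose and 5.02% fell in jnk1-/- mice. With both genotypes averaged, 8.67% of all probes rose and 7.24% fell. Between the controls, 1.89% of all probes were higher and 2.18% lower in jnk1-/- mice. Of its other cytokines and receptors, 10 of 14 measured, none was called in either genotype, and with both averaged 1 fell, Ctf1, which encodes cardiotrophin 1 (-0.66, adjusted p = 0.0469), a call kept in 8 of 26 alternative analyses. Of the kinases, other STATs, shedding proteases and phosphatases, 17 of 20 measured, none was called in wild-type mice and 3 rose in jnk1-/- mice. They were Stat2, a transcription factor of interferon signalling (1.61, adjusted p = 0.0156), Ptpn1, a phosphatase that acts on JAK kinases (1.39, adjusted p = 0.0393), and Rhbdf2, which encodes iRhom2, the carrier of the shedding protease ADAM17 (0.995, adjusted p = 0.0247). Each was lost when single arrays were left out, and this count ranged from 0 to 4. In wild-type mice, where they were not called, Ptpn1 went from 6.10 ± 0.06 to 7.56 ± 0.56 and Rhbdf2 from 8.17 ± 0.08 to 8.97 ± 0.32, both without overlap. Wild-type Stat2 had 5.04 ± 0.14 and then 4.99 ± 0.40. With both genotypes averaged, Ptpn1 and Rhbdf2 rose and the kinase Tyk2 fell (-0.49, adjusted p = 0.0374). The Tyk2 call was kept in 12 of 26 alternative analyses. Ptpn6, the phosphatase SHP-1 of blood cells, was higher in jnk1-/- than in wild-type controls (2.25, adjusted p = 0.0165), as was the adaptor Gab2 (1.70, adjusted p = 0.0459). On 2 of the 3 wild-type control arrays both lay at the floor of the authors' table. The Ptpn6 call was lost when replicate 2 or 3 of the wild-type controls or replicate 1 of the jnk1-/- controls was left out, and that of Gab2 was kept in 8 of 26 alternative analyses.

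Among the inhibitors other than Socs3, 12 of 13 measured, none was called in wild-type mice. For the counts of this paragraph, 2.22% of all probes rose in wild-type mice, 6.72% in jnk1-/- mice and 8.67% with both averaged. In jnk1-/- mice Socs2 rose by 0.91 (adjusted p = 0.0107) and Cish by 0.85 (adjusted p = 0.0436), both members of the SOCS family best known from growth hormone and STAT5 signalling. The Cish call was kept in 7 of 26 alternative analyses. Wild-type Cish went from 5.20 ± 0.05 to 5.86 ± 0.25 without overlap, and wild-type Socs2 from 10.59 ± 0.22 to 10.75 ± 0.15 with overlap. With both genotypes averaged 3 inhibitors rose. They were Cish, Socs2 and Socs4, kept in 23 of 25, 22 of 26 and 11 of 25 alternative analyses. Of 15 regulators and inducers of interleukin 6 class genes, all measured, 4 rose in each genotype. Arid5a, which encodes a protein that stabilises Il6 mRNA, rose from 7.25 ± 0.07 to 9.79 ± 0.49 in wild-type mice (2.54, SE 0.32, adjusted p = 0.00214) and from 7.48 ± 0.20 to 10.03 ± 0.56 in jnk1-/- mice (2.55, SE 0.32, adjusted p = 7.43e-04). Zfp36, whose product destabilises cytokine mRNAs, rose by 1.09 and 0.82, and Nfkbia, the inhibitor of NF-kB, by 1.21 and 0.93. The fourth was Il17c, an epithelial cytokine, in wild-type mice (1.84, adjusted p = 0.0440), and Il1b, which encodes the inducer interleukin 1 beta, in jnk1-/- mice (1.84, adjusted p = 0.0179). The wild-type Il17c call was kept in 14 of 27 alternative analyses. Il1b also went from 7.94 ± 0.54 to 9.56 ± 0.30 in wild-type mice without overlap, and Il17c from 5.99 ± 0.79 to 7.12 ± 0.82 in jnk1-/- mice with overlap. With both genotypes averaged 6 of the list rose, Il1b and Il17c among them, calls kept in 26 and 23 of 26 alternative analyses. Arid5a was called in both genotypes without any single array, and without single arrays the count of the list ranged from 1 to 5 in each genotype.

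The genes whose pattern over the 14 arrays was most like that of Il6, among 13922 genes compared by Pearson's r, were Nfkbib (0.953), Nars (0.952), Osgin1 (0.949), Litaf (0.941) and Tes (0.941). For Socs3 they were Clic4 (0.958), Zfand2a (0.957), Litaf (0.955), Hmox1 (0.953) and Krt18 (0.950). Litaf stood on both lists. The points share the split between control and ventilated mice, so these values are a description of the pattern and carry no test.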

How the data were processed

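Lung RNA of 14 mice was hybridised as Cy5-labelled cRNA to CodeLink UniSet I 20K arrays. The authors deposited log2 intensities of each array, not normalized between arrays (medians 4.98 to 6.37, lowest value -6.861 on 1.86% to 10.7% of probes), and a log2 table they normalized by cyclic loess, whose floor of 3.122 holds 24.5% of its values. The lowest value was most frequent on wild-type control replicate 2, at 10.7% of probes, and next on wild-type control replicate 3, at 6.98%. Scanner software and background handling are not given in the sources used here, and no quality flags were used.

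Here the deposited per-array values underwent cyclic loess between every pair of arrays (R 4.3.3, span 0.7, 3 iterations), values at the lowest level being left out of the curves and then raised with others to the 1st percentile, -0.63. The outcome correlated with the authors' table at 0.990 or more above its floor, the lowest being wild-type control replicate 2. Group means of all 14 arrays were fitted in limma 3.58.1 (lmFit, eBayes, two-sided), p-values being adjusted by Benjamini-Hochberg for all probes, with a threshold of 0.05. The code was tested on simulated data. Arrays give no read depth, and their number limits the precision. Figures used matplotlib 3.10.9 with Python 3.11.15.

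Probe names are those of a platform annotation updated through Entrez identifiers to RefSeq symbols: 15353 probes have 1 gene, 91 several and 4177 none. In the lists a gene is read by its brightest probe. Marker levels are log2 of the sum of linear intensities. Members and lists were chosen with earlier results of these data known. The text names every member probe, Mapk8, up to 6 genes per pathway list and comparison by adjusted p, and the 5 genes most like Il6 and Socs3. Genes beyond this, named as members of small counts or as examples, were chosen after their values were seen. One ventilated wild-type array, replicate 2, has a label whose strain name is misspelt. Alternatives were other normalizations, floors and filters, the authors' table, the methods' t-test, array weights, a replicate block, and arrays left out.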

Additional observations from a re-analysis of the deposited data

Results flagged for a closer look

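Among 22 sets of 4 ventilated arrays, 1 for each member probe and genotype, 3 held an array that stood apart from the other 3 by Dixon's criterion, where chance gives about 1 in 20. Il11 was low in ventilated jnk1-/- replicate 2, at 1.63 against 4.35 to 4.90 on the other arrays of the group, and this value lay at the floor of the authors' table. Stat3 probe 1 was low in ventilated wild-type replicate 4, at 10.34 against 10.79 to 10.88. Cebpd was low in ventilated jnk1-/- replicate 3, at 12.12 against 13.04 to 13.21.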

How the results depend on the processing

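No called member change turned its direction under any alternative. For ventilation, counts of called member probes out of 11, given as wild-type and then jnk1-/- mice, were 4 and 7. They became 0 and 0 with the methods' t-test, which at an adjusted p under 0.05 called 7 and 55 of all 19621 probes. At an unadjusted p under 0.05 this test gave 7 and 9 member probes. The share of all probes at an unadjusted p is not given here for any count. The counts were 2 and 3 when only the compared arrays were fitted, where 449 and 662 of all probes were called. With single arrays left out they ranged from 1 to 4 and from 3 to 7, and the averaged count from 6 to 9. Without wild-type controls 2 and 3 together the wild-type count was 0 (5 unadjusted). Without jnk1-/- controls 1 and 2 together the jnk1-/- count was 2 and the averaged count 5, instead of 8. Between genotypes after ventilation, leaving out single arrays gave 0 to 1, and in controls and for the difference of the changes 0 to 0. Other normalizations, floors, filters, array weights and the authors' table gave 4 to 6 in wild-type, 6 to 8 in jnk1-/- mice and 6 to 8 averaged. With dim probes left out, the counts of 6, 8 and 8 were out of 8 member probes. The calls over all probes varied as well. Array weights called 2220, 3775 and 5093 of all probes, against 732, 2304 and 3122 in the main fit.

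Replicate numbers did not pair the arrays: deviations of same-numbered arrays correlated between -0.05 and 0.08 in 19 pairs. With the replicate number as a block, the counts were 1 in wild-type and 7 in jnk1-/- mice. Il6ra, Il11 and Il6st probe 2 were near background, so changes in them were hardly measurable. The counts of risen STAT3 targets, 8 and 9, ranged from 6 to 9 and from 8 to 10 without single arrays, and were 0 and 0 with the methods' t-test.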
